A study of Mus musculus with 12 samples.

Results

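Left ventricles of 6 mice with transverse aortic constriction (TAC) were compared with left ventricles of 6 sham-operated mice, with the drug given to each mouse as a covariate. The 12 libraries are 12 of the 12 of the series, placed by the surgery named in their labels. Constriction narrows the aortic arch with a clip calibrated on a needle, so that the ventricle ejects against raised pressure, and sham mice had the operation without the clip. All were male C57BL/6 mice that had surgery when 8 weeks old and were killed when 12 weeks old, and no transgene or mutant allele is named for any of them. Each surgery arm holds 3 control mice, for which no vehicle is named, and 3 mice that took dantrolene by mouth (30 mg/kg/day, 4 weeks). Dantrolene is a muscle relaxant that inhibits calcium release through ryanodine receptors. The study asked about the cardiac channel RyR2 and TNF-α, NF-κB and NLRP3 signalling in hypertrophy, while the comparison here asks which expression differences between TAC and sham hearts are shared by mice with and without the drug.

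A ventricle that pumps against raised pressure thickens. Its cardiomyocytes are known to return to a fetal pattern of expression that includes natriuretic peptides and skeletal actin, and its fibroblasts to lay down matrix. Immediate early genes encode transcription factors and feedback regulators that are induced quickly by stretch, growth factors and stress, and their mRNAs are short-lived. Heat shock proteins are chaperones induced by unfolded protein.

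Libraries held 25766378 to 38363106 reads on genes, and 14965 of 25319 genes had enough reads to be tested. The first principal component held 41.7% of the variance and set apart 4 libraries, 1 of each group: mouse 3 of both sham groups and mouse 1 of both TAC groups. Mitochondrially encoded transcripts took 1.71% of the reads in TAC dantrolene 2 and up to 22.4% in TAC control 3. Within a surgery arm, control and dantrolene mice with the same number deviated from their group means together (correlations of 0.3 to 0.672 over genes), so the 6 mice of an arm may hold fewer than 6 independent units. Transcripts of cardiomyocytes were abundant in every library. Myh6, the adult myosin heavy chain, stood at 3152 to 18872 CPM (counts scaled to the TMM-adjusted total of their library) and Tnni3, cardiac troponin I, at 6790 to 14125 CPM. In whole tissue, fewer cells of a type and less RNA per cell cannot be told apart.

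Among the genes of smallest p, several immediate early genes (Zfp36, Ier2, Dusp1, Junb) and cytokine genes (Il1b, Ccl3) were lower in TAC hearts of both drug arms. Prostaglandin D synthase (Ptgds), stromelysin (Mmp3) and keratin 19 (Krt19) were higher in both. Krt19 was spread unevenly over TAC hearts, and its log2 fold of 2.85 was 2.27 without TAC control 1. The HSP70 gene Hspa1a had positive folds in both, but its high value in dantrolene mice came from TAC dantrolene 3 alone. With edgeR's quasi-likelihood test and Benjamini-Hochberg adjustment over all genes, 0 of 14965 genes passed an adjusted p of 0.05 (0%), and the smallest adjusted p was 0.125 for Zfp36. Higher counts in TAC at an unadjusted p under 0.05 were seen for 752 genes (5.03%), and lower counts for 262 (1.75%). With same-numbered mice of a surgery arm as a random block these counts were 163 and 54, and on their summed counts, 3 against 3, they were 316 and 82. The shares of list members below are set against 5.03% and 1.75% and carry the same limit. All 6 TAC mice lay above all 6 sham mice for 46 genes (0.307%), and below them for 37 (0.247%). DESeq2, run as an alternative, called 17 genes higher (0.114%) and 16 lower (0.107%) at an adjusted p of 0.05. The median log2 fold over all genes was 0.06, and 56.8% of all genes had a positive fold. The split into higher and lower genes depended on the scaling: 74.2% of the genes under the unadjusted threshold were higher with TMM scaling, but 37.6% (259 higher and 429 lower) with library totals, which moved the median of all genes by -0.14. That scaling also turned the sign of the list medians of sarcomere (0.08 to -0.03), calcium handling (0.05 to -0.08), NLRP3 (0.04 to -0.16) and interferon genes (0.10 to -0.04), all small.

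Zfp36, which encodes tristetraprolin, a protein that speeds the decay of cytokine mRNAs, stood furthest from sham by its p (ENSMUSG00000044786.5, chr7:28376784-28380253, minus strand). Its level was 109 CPM in the lowest, 274 in the median and 306 in the highest of 6 sham hearts, and 29.3, 56.1 and 75.3 CPM in 6 TAC hearts. Every TAC heart lay below every sham heart. The log2 fold was -2.17 ± 0.32 (SE, n = 6 mice per group), with an adjusted p of 0.125 by edgeR and 1.2e-07 by DESeq2. It was as large in either drug arm, at -2.26 in control and -2.09 in dantrolene mice, and it lay between -2.34 and -2.04 when each library was left out in turn. Without the 4 libraries set apart on the first principal component, a split chosen after seeing the data, the fold was -2.03, with an adjusted p of 0.0132 by edgeR. With same-numbered mice of a surgery arm as a random block the fold was -2.15, and on their summed counts -2.12. In these 2 settings neither Zfp36 nor any other gene passed an adjusted p of 0.05.

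Ier2, an immediate early transcriptional regulator (ENSMUSG00000053560.4, chr8:84661331-84662852, minus strand), had 152, 236 and 388 CPM in the lowest, median and highest sham heart and 61.7, 90.5 and 108 CPM in the TAC hearts, again with no overlap. Its log2 fold was -1.46 ± 0.25 (adjusted p = 0.202 by edgeR, 1.4e-04 by DESeq2), and -1.34 and -1.58 in the 2 arms. Junb, a subunit of the AP-1 transcription factor (ENSMUSG00000052837.5, chr8:84974484-84978718, minus strand), had 132, 289 and 497 CPM in sham and 37.7, 84.9 and 124 CPM in TAC hearts, and the groups did not overlap. Its fold was -1.78 ± 0.37 over both arms and -1.78 in each (adjusted p = 0.52 by edgeR, 0.00265 by DESeq2). Dusp1, a phosphatase that switches off MAP kinases (ENSMUSG00000024190.6, chr17:26505590-26562128, minus strand), had 217, 633 and 723 CPM in sham and 65.1, 131 and 298 CPM in TAC hearts. Here 1 TAC heart, dantrolene mouse 2 at 298 CPM, reached into the sham range. The fold was -1.87 ± 0.37 (adjusted p = 0.504 by edgeR, 0.0015 by DESeq2), and -1.92 and -1.81 in the arms. Plk2, a stress-induced kinase, went the same way with 27.2, 42.1 and 57.9 CPM in sham and 9.37, 17.4 and 30.9 CPM in TAC hearts, and its range overlapped with sham.

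Over the whole list of immediate early genes, 28 of 29 listed members were tested, 22 had a negative and 6 a positive fold, and the median was -0.71 against 0.06 over all genes. At an unadjusted p under 0.05, 9 of the 28 were lower (32.1%, against 1.75% of all genes) and 0 were higher. Besides Zfp36, Ier2, Junb and Dusp1 these were Fos, Fosb, Egr1, Btg2 and Klf2. Fos, the partner of Junb in AP-1, had 26.3, 125 and 143 CPM in sham and 2.93, 26.9 and 44.2 CPM in TAC hearts. Sham control 3 was the only sham heart inside the TAC range for Fos. Klf2, a Krüppel-like factor of the endothelium, had 183, 332 and 434 CPM in sham and a TAC median of 116 CPM, with a fold of -1.28 ± 0.33, and TAC dantrolene 2 alone lay within the sham range. Members that overlapped widely included Atf3 at -0.88 ± 0.95 and Nr4a1 at -1.85 ± 1.01, both of them highest in TAC dantrolene 2. The list's median was -1.50 in control and -0.23 in dantrolene mice. The members named first had like folds in both arms, but they were chosen by their p over both arms, which favours such genes.

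Promoter sequence is shown for Zfp36, Junb and Dusp1, because these feedback and AP-1 genes were lower together in both drug arms. Each is the 250 bases before the RefSeq start on GRCm38.p6, written 5′ to 3′ on the gene's strand. Capitals mark a CArG box (the serum response factor motif), a CRE (TGACGTCA, the CREB motif) and an E-box (CACGTG, the motif of CLOCK and BMAL1 and of other factors), each searched on both strands. None of these motifs overlapped another in the stretches shown.
Zfp36 (chr7:28379229-28379478, minus strand): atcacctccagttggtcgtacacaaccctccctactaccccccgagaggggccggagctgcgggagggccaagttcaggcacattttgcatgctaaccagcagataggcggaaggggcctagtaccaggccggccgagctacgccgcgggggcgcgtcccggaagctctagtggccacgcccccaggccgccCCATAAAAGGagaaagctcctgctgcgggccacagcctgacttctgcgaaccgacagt
Junb (chr8:84978749-84978998, minus strand): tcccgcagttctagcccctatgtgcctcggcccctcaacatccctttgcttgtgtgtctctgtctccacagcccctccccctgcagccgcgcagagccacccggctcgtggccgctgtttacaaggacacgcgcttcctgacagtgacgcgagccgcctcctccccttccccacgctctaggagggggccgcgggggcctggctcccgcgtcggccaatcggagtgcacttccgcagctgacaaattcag
Dusp1 (chr17:26508473-26508722, minus strand): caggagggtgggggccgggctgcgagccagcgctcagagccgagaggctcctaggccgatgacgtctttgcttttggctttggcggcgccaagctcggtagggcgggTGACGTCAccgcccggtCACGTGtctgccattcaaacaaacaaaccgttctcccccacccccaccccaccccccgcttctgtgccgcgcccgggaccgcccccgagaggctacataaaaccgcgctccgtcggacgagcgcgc
The Zfp36 stretch held a CArG box at -58 to -49 from the start, a motif present in 1.47% of 32851 promoters of this length. The Dusp1 stretch held a CRE at -143 to -136 (1.55% of promoters) and an E-box at -126 to -121 (6.02%). The Junb stretch held none of these letters. Of the 29 immediate early genes 22 had a RefSeq promoter, and 3 of the 22 held a CArG box, 3 a CRE and 5 an E-box. A match is a description of letters in a window, and the CRE was added to the search after the expression values had been seen.

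Clock genes differed among the TAC hearts. Arntl, which encodes the clock activator BMAL1, stood at 0.0827 to 2.46 CPM in the sham hearts and at 0.877 to 1.79 CPM in 3 TAC hearts. It was higher in mouse 1 of the TAC control group (5.33 CPM) and in mice 1 (6.28 CPM) and 2 (8.52 CPM) of the TAC dantrolene group. Dbp, an output of the clock with the opposite phase, was at 13.1, 31.6 and 17.5 CPM in the latter 3 libraries and at 139 to 184 CPM in the other 3 TAC hearts. Of 19 clock genes tested, 3 were higher (Arntl, Clock and Rora; 15.8% against 5.03% of all genes) and 1 was lower (Tef; 5.26% against 1.75%) at an unadjusted p under 0.05. The hour of sampling is not given in the labels. Zfp36 stood at 49 to 65.3 CPM in the TAC hearts with low Arntl and at 29.3 to 75.3 CPM in those with high Arntl. With the log2 difference of Arntl and Dbp as an added term the folds were -2.0 for Zfp36, -1.14 for Ier2, -2.20 for Dusp1 and -1.41 for Junb (adjusted p = 0.204 to 0.262 by edgeR). Because Arntl itself was higher in TAC hearts, this term cannot separate the clock from surgery. The part of the clock in these differences was not tested.

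**Figure D1:**
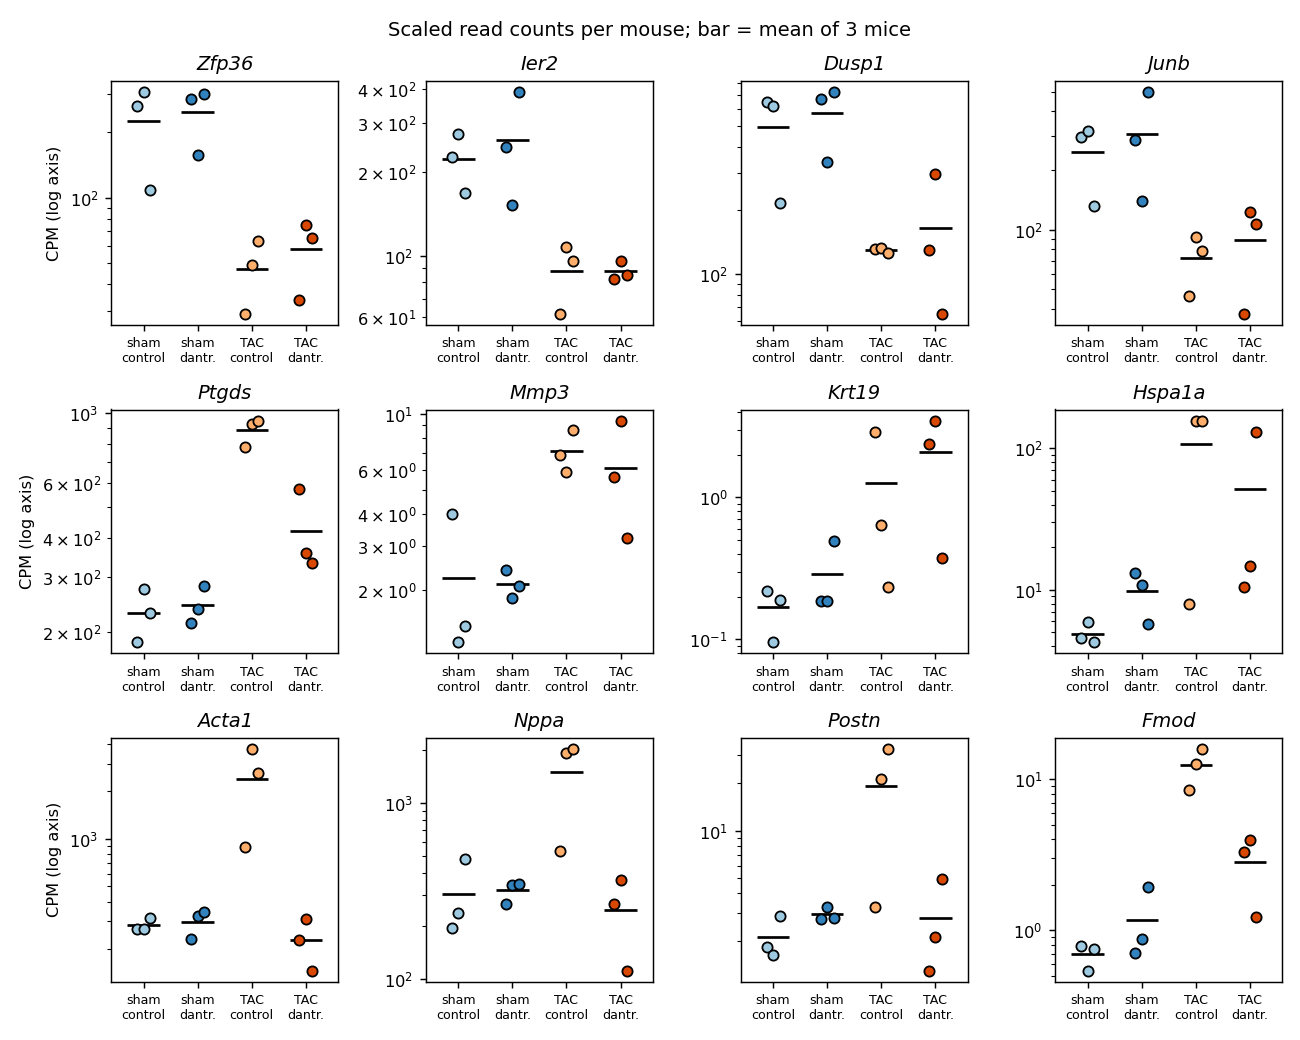
Scaled counts (CPM, log axis) of 12 genes in each of the 12 mice, by group, with bars at the mean of 3 mice. The top row shows 4 immediate early genes, of which Zfp36, Ier2 and Junb have every TAC mouse below every sham mouse. The middle row shows genes higher in TAC, with Ptgds free of overlap, and the bottom row shows genes whose high values sit in TAC control mice, such as Acta1 at 887 to 3708 CPM.

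Single cytokine and leukocyte genes at a few CPM, chosen by their small p or after their values were seen, were lower in TAC hearts of both arms. Lists of such genes as a whole were not lower in both arms. Il1b, the inflammatory cytokine interleukin-1β (ENSMUSG00000027398.11, chr2:129364570-129371139, minus strand), had 0.529, 2.60 and 9.55 CPM in the lowest, median and highest sham heart and 0.157, 0.416 and 0.842 CPM in TAC hearts. The log2 fold was -2.96 ± 0.70 (adjusted p = 0.622 by edgeR, 0.00403 by DESeq2), -2.68 in control and -3.24 in dantrolene mice. Sham control 3 and sham dantrolene 2 lay within the TAC range. Ccl3, a chemokine that attracts monocytes, had 0.378, 1.40 and 2.40 CPM in sham and 0.121, 0.226 and 0.526 CPM in TAC hearts (log2 fold -2.17 ± 0.54). Chemokines of neutrophils went the same way, with Cxcl1 at 3.44 to 30.1 CPM in sham and 0.283 to 6.76 CPM in TAC hearts, and Cxcl2 at up to 5.91 CPM in sham and at most 0.379 CPM in TAC hearts. DESeq2 called both (adjusted p = 0.0446 and 0.0295), together with Osm, the gp130 cytokine oncostatin M (0.0295). The Cxcl1 fold was -1.20 in control and -3.42 in dantrolene mice, a difference with an unadjusted p of 0.0822 and an adjusted p of 1 by edgeR.

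Itgal, the LFA-1 integrin subunit of leukocytes, had 1.95, 2.35 and 4.92 CPM in the lowest, median and highest sham heart and 0.121, 0.852 and 1.38 CPM in TAC hearts, with no overlap. Its log2 fold was -1.86 ± 0.46 (adjusted p = 0.622 by edgeR, 0.0211 by DESeq2). Ccr7, the receptor that guides dendritic cells and T cells to lymph nodes, was at 0.286 to 1.20 CPM in sham hearts and at 0 to 0.266 CPM in TAC hearts, where 2 libraries had no read. Usp18, an interferon-induced protease that removes ISG15, had 8.96, 17.2 and 20.7 CPM in sham and 2.79, 5.79 and 7.49 CPM in TAC hearts without overlap (log2 fold -1.51 ± 0.26, adjusted p = 0.202 by edgeR and 2.2e-04 by DESeq2). It was alone in its list: of 28 interferon-response genes tested, 1 was lower (3.57% against 1.75% of all genes) and 0 higher at an unadjusted p under 0.05. The list's median was 0.64 in control and -0.31 in dantrolene mice.

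The pathway named by the study was mixed. Of 33 TNF and NF-κB genes tested, 4 were lower (Il1b, Cxcl1, Tnf and Ccl2; 12.1% against 1.75% of all genes) and 2 higher (Rel and Chuk; 6.06% against 5.03%), with a median of 0.00 in control and 0.05 in dantrolene mice. Tnf itself had 0.189, 1.50 and 2.59 CPM in sham and 0.313, 0.791 and 0.863 CPM in TAC hearts, a log2 fold of -1.09 ± 0.48 (95% interval -2.12 to -0.05, adjusted p = 0.728 by edgeR). Only sham control 3 lay below the highest TAC heart. The subunits Nfkb1 and Rela had folds of -0.02 ± 0.26 and -0.16 ± 0.19. Of 16 NLRP3 inflammasome genes, Il1b alone passed the unadjusted threshold (6.25% lower against 1.75% of all genes). Nlrp3, the sensor, had a fold of -0.34 ± 0.51 (95% interval -1.43 to 0.76) and Casp1, the protease that matures IL-1β, of 0.26 ± 0.55 (-0.92 to 1.44).

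Markers of the blood cells that carry such transcripts were read beside them, in lists of neutrophil and dendritic cell genes that were added after values had been seen. Of 7 neutrophil markers tested, 1 was higher (Cxcr2) and 1 lower (Cxcr4), 14.3% each way against 5.03% and 1.75% of all genes, and their summed level ran from 11.1 to 85.1 CPM in sham and from 5.51 to 32.1 CPM in TAC hearts. S100a8 and S100a9, which define neutrophils, were highest in sham dantrolene 3 at 26.6 and 35.8 CPM, the library that also had the highest Il1b, Cxcl1, Cxcl2, Osm and Itgal. Without the 4 libraries set apart, sham dantrolene 3 among them, the folds were -2.62 for Il1b, -1.69 for Cxcl1, -2.52 for Cxcl2, -2.43 for Osm and -1.61 for Itgal. Of 15 lymphocyte markers 13 had negative folds and 0 passed the unadjusted threshold. Their median was 0.16 in control mice (9 positive and 6 negative) and -0.87 in dantrolene mice (1 and 14), with summed levels of 16.5 to 41.3 CPM in sham and 10.8 to 40.4 CPM in TAC hearts. The part of cell numbers in the lower cytokine counts was not otherwise tested. Neutrophil and dendritic cell lists likewise had medians of 0.19 and 0.20 in control and of -1.04 and -0.31 in dantrolene mice. Over both arms the medians were -0.46 for lymphocyte, -0.71 for neutrophil and -0.08 for dendritic cell markers, against 0.06 over all genes. Of 26 macrophage genes 2 were higher (7.69% against 5.03% of all genes) and 0 lower, with 24 positive folds in control and 9 in dantrolene mice. Cd163, a scavenger receptor of resident macrophages, had 1.94 to 5.97 CPM in sham and 4.09 to 10.9 CPM in TAC hearts (log2 fold 0.94 ± 0.30), with folds of 1.11 and 0.76 in the arms.

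Among the higher genes Ptgds, the lipocalin-type enzyme that makes prostaglandin D2, was the most abundant of the 12 of smallest p (ENSMUSG00000015090.11, chr2:25466709-25470046, minus strand). It had 186, 233 and 281 CPM in the lowest, median and highest sham heart and 333, 677 and 947 CPM in TAC hearts, so the groups did not overlap. The log2 fold was 1.37 ± 0.26 (adjusted p = 0.455 by edgeR, 0.00191 by DESeq2). It was 1.94 in control and 0.79 in dantrolene mice, and this difference had an unadjusted p of 0.0167 and an adjusted p of 1. Rbm12b1, an RNA-binding protein gene, had 0.436 to 0.896 CPM in sham and 1.13 to 3.00 CPM in TAC hearts, also without overlap (log2 fold 1.71 ± 0.33, DESeq2 adjusted p = 0.00339).

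Mmp3, stromelysin-1, a secreted protease that cleaves matrix proteoglycans, had 1.24, 1.97 and 4.01 CPM in the lowest, median and highest sham heart and 3.23, 6.38 and 9.40 CPM in TAC hearts (log2 fold 1.60 ± 0.34, DESeq2 adjusted p = 0.00783). Its fold was 1.67 in control and 1.53 in dantrolene mice, and sham control 1 was the only sham heart within the TAC range. Gabra3, a GABA receptor subunit, had folds of 1.75 and 2.40 in the arms, with 0.156 to 0.737 CPM in sham and 0.673 to 2.67 CPM in TAC hearts. Smaller folds with narrow spread stood beside these. Nus1, a subunit of the dolichol-making prenyltransferase, had 15.5 to 20.5 CPM in sham and 25.7 to 32 CPM in TAC hearts (log2 fold 0.72 ± 0.15). Eif3a, a subunit of the translation initiation factor eIF3, had 10 to 16 CPM in sham and 20.9 to 31.1 CPM in TAC hearts (0.83 ± 0.18). Smim10l1 (0.87 ± 0.20) and Etf1, the translation termination factor eRF1 (0.96 ± 0.23), were higher in both arms too, as were Fam107a (1.12 ± 0.27) and Fam65c (1.62 ± 0.39). Nus1, Eif3a, Smim10l1 and Fam65c were free of overlap.

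On the lower side outside immune and immediate early genes, Sbk2, a kinase gene of heart muscle, had 7.31, 10 and 16.1 CPM in the lowest, median and highest sham heart and 1.88, 5.01 and 6.17 CPM in TAC hearts, again without overlap (log2 fold -1.26 ± 0.31, DESeq2 adjusted p = 0.0308). Chaf1b, a subunit of the chromatin assembly factor of replicating cells, had 0.371 to 2.15 CPM in sham and 0.311 to 0.648 CPM in TAC hearts, with sham dantrolene 1 inside the TAC range. Of 25 cell cycle genes 1 was higher and 1 lower (4% each way against 5.03% and 1.75% of all genes), and the list's median was -0.08.

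**Figure D2:**
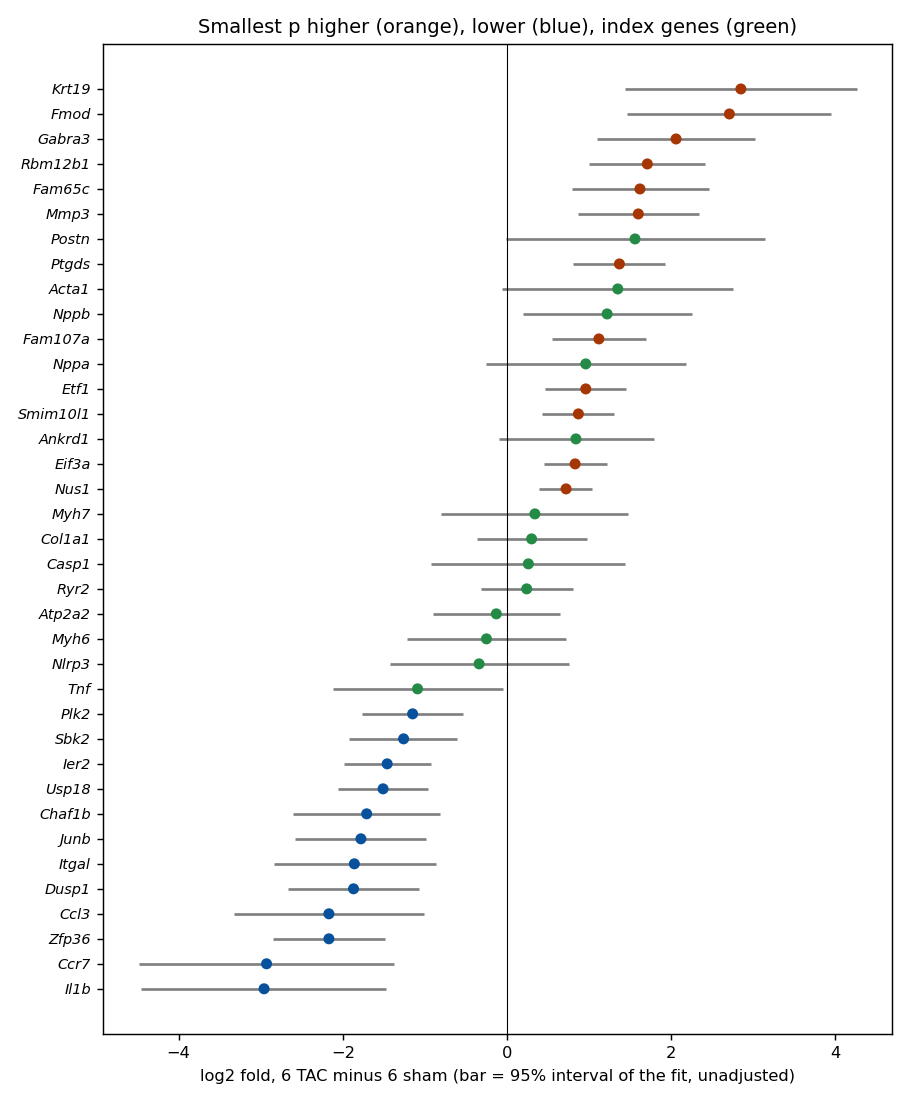
Log2 fold of TAC over sham (6 mice each, drug as covariate) with the unadjusted 95% interval, for the 12 genes of smallest p in each direction and the index genes of hypertrophy, calcium handling and inflammation. Intervals of the orange and blue genes leave out 0 by their selection, while those of Postn, Acta1, Nppa and Ankrd1 include it and reach 3.14 for Postn.

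Marker genes of the heart's outer lining, the epicardium and mesothelium, were higher in TAC hearts at low levels. Of 10 tested, 6 were higher at an unadjusted p under 0.05 (60% against 5.03% of all genes) and 0 lower, with a median of 1.59, and of 1.82 and 1.29 in the arms. Krt19, an epithelial keratin (ENSMUSG00000020911.12, chr11:100140810-100148665, minus strand), had 0.0955, 0.188 and 0.496 CPM in the lowest, median and highest sham heart and 0.235, 1.51 and 3.47 CPM in TAC hearts (log2 fold 2.85 ± 0.66, adjusted p = 0.622 by edgeR and 0.00949 by DESeq2). The folds were 2.84 and 2.86 in the arms. Msln, mesothelin, was at 0.0378 to 1.45 CPM in sham and 0.47 to 12.3 CPM in TAC hearts, and Upk1b, a uroplakin, at 0 to 0.124 CPM in sham and 0 to 1.73 CPM in TAC hearts.

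The mesothelial counts were not spread evenly over TAC hearts. Krt19, Msln, Upk1b and Upk3b were all highest in the 3 TAC hearts with high Arntl, and with the Arntl and Dbp term the folds were 1.43 for Krt19, 2.30 for Msln and 1.50 for Upk1b. Wt1, an epicardial transcription factor, had a fold of 0.43 ± 0.35 and Krt18 of 0.18 ± 0.53. The summed level of the list was 82.4 to 166 CPM in sham and 143 to 283 CPM in TAC hearts. How much outer tissue each sample held was not tested. Of 7 skeletal muscle and 7 erythroid markers tested 0 passed the unadjusted threshold. All 7 erythroid folds were positive with a median of 0.91, and their summed level was 816 to 4377 CPM in sham and 862 to 11637 CPM in TAC hearts, highest in TAC dantrolene 1. Of 10 atrial markers 2 were higher (Myl7 and Dkk3; 20% against 5.03% of all genes) and 1 lower (Tbx5; 10% against 1.75%). Their summed level was 357 to 698 CPM in sham and 251 to 2140 CPM in TAC hearts, and Nppa, a member, alone reached 2015 CPM. Myl7, the atrial light chain, did not exceed 1.90 CPM in any heart.

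Heat shock genes were higher in part of the TAC hearts. Of 30 chaperones and cochaperones tested, 24 had positive folds, 11 were higher at an unadjusted p under 0.05 (36.7% against 5.03%) and 0 were lower. The median was 0.28, small beside the largest members. Hspa1a, an inducible HSP70 (ENSMUSG00000091971.3, chr17:34969190-34972156, minus strand), had 4.27, 5.80 and 13.1 CPM in the lowest, median and highest sham heart and 7.99, 72.1 and 157 CPM in TAC hearts. The log2 fold was 3.41 ± 0.82 (adjusted p = 0.622 by edgeR, 0.0152 by DESeq2), with 4.44 and 2.38 in the arms. High values came from TAC control 2 (156 CPM), TAC control 3 (157) and TAC dantrolene 3 (130), the hearts with low Arntl, while TAC control 1, dantrolene 1 and dantrolene 2 stayed at 7.99, 10.5 and 14.7 CPM. Without the 4 libraries set apart the fold was 3.72, and within those 4 alone it was 0.83. Hspa1b, a near-identical copy whose reads may be split with it, showed the same pattern at 3.04 to 183 CPM in TAC hearts.

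Cochaperones had smaller folds. Dnajb4, an HSP40 of striated muscle, had 10.7, 12.1 and 14.1 CPM in the lowest, median and highest sham heart and 10.3, 25.6 and 39.2 CPM in TAC hearts (log2 fold 1.02 ± 0.31). Hsph1, the nucleotide exchange factor HSP110, had 7.07 to 19.1 CPM in sham and 13.8 to 39.3 CPM in TAC hearts (1.05 ± 0.33), and Chordc1, a partner of HSP90, had a fold of 1.10 ± 0.34 that was as large in control (1.06) as in dantrolene mice (1.15). Hsp90aa1 and Dnaja1 leaned to the control arm, with 2.14 and 2.16 in control against 0.45 and 0.35 in dantrolene mice. The unadjusted p of the difference was 0.0509 for Hsp90aa1 and 0.00807 for Dnaja1 (adjusted p = 1 by edgeR for both). Of 26 genes of the unfolded protein response in the endoplasmic reticulum, 0 were higher and 1 was lower (3.85% against 1.75% of all genes).

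The index genes Acta1, Nppa and Postn of hypertrophy and fibrosis had their high values in TAC control mice, and in dantrolene mice TAC and sham hearts overlapped. Acta1, skeletal α-actin (ENSMUSG00000031972.4, chr8:123891769-123894751, minus strand), had 232, 291 and 343 CPM in the lowest, median and highest sham heart. TAC control mice had 887, 3708 and 2615 CPM and TAC dantrolene mice 230, 312 and 146 CPM. Over both arms the log2 fold was 1.35 ± 0.66 (adjusted p = 0.739 by edgeR). It was 3.09 ± 0.49 in control and -0.39 ± 0.46 in dantrolene mice, and the difference of the arms had an unadjusted p of 1.8e-04 and an adjusted p of 1. The Acta1 promoter is shown because it carries textbook elements of this programme, a CArG box and an M-CAT box (CATTCC, the TEAD motif), in capitals, in the 250 bases before the RefSeq start on GRCm38.p6.
Acta1 (chr8:123894776-123895025, minus strand): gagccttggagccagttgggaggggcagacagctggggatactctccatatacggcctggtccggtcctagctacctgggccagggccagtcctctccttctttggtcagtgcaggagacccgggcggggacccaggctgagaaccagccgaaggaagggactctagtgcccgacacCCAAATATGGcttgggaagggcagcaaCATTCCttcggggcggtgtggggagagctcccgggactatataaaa
The CArG box lay at -73 to -64 and the M-CAT box at -46 to -41, and an M-CAT box was present in 12.6% of all promoters of this length.

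Nppa, atrial natriuretic peptide, followed Acta1 with folds of 2.30 ± 0.57 in control and -0.37 ± 0.54 in dantrolene mice (unadjusted p of the difference 0.00472), which gave 0.96 ± 0.57 over both. Postn, periostin of activated fibroblasts, had 1.62, 2.78 and 3.27 CPM in the lowest, median and highest sham heart and 1.30, 4.10 and 32.9 CPM in TAC hearts, with 3.19 ± 0.71 and -0.08 ± 0.66 in the arms (0.00494). Both folds reversed, to -0.18 and -0.49, within the 4 libraries set apart. Nppb, B-type natriuretic peptide, was less divided by the drug. It had 323, 434 and 889 CPM in sham and 164, 1129 and 2135 CPM in TAC hearts, a fold of 1.22 ± 0.48 (95% interval 0.19 to 2.25, adjusted p = 0.711 by edgeR), and 5 of 6 TAC hearts stood above the sham median. Its folds were 1.87 and 0.57, and their difference had an unadjusted p of 0.173. Ankrd1, a stretch-responsive cofactor, had 0.84 ± 0.44. Myh7, the fetal myosin heavy chain, had 0.34 ± 0.53 and Myh6 -0.25 ± 0.45.

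Of the 22 genes of the fetal and hypertrophy list 5 were higher (22.7% against 5.03%) and 0 lower at an unadjusted p under 0.05. They were Nppb, Xirp2, Nmrk2, Uchl1 and Enah, and the list's median was 0.36, with 0.30 and 0.34 in the arms. Nmrk2, a muscle kinase that makes NAD from nicotinamide riboside, had 3.46, 4.68 and 8.64 CPM in the lowest, median and highest sham heart and 2.79, 15.8 and 40.6 CPM in TAC hearts (log2 fold 1.86 ± 0.52). Its folds of 2.00 and 1.71 were alike in the arms, but TAC dantrolene 3, at 2.79 CPM, lay below every sham heart. Over both arms the Nmrk2 fold was 1.16 without TAC dantrolene 1 and 1.17 without the 4 libraries set apart. Enah, an actin regulator, had 0.83 and 0.72 in the arms, and Xirp2, a protein of the intercalated disc, 1.37 and 0.68.

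Matrix genes were higher over both arms at an unadjusted p under 0.05 in 4 of 22 collagens, 5 of 28 proteoglycans and glycoproteins, 4 of 23 genes of collagen processing and 8 of 26 genes of activated fibroblasts, and 0 were lower in any of these lists. These shares are 18.2%, 17.9%, 17.4% and 30.8%, against 5.03% of all genes. Their medians in control and dantrolene mice were 0.64 and -0.08, 0.57 and 0.13, 0.54 and 0.17, and 1.09 and 0.07, in that order. Fmod, fibromodulin, a proteoglycan that binds collagen fibrils (ENSMUSG00000041559.7, chr1:134037254-134048277, plus strand), was the matrix gene of smallest p. It had 0.541, 0.773 and 1.94 CPM in the lowest, median and highest sham heart, 8.48, 12.7 and 15.9 CPM in TAC control mice and 3.32, 3.98 and 1.22 CPM in TAC dantrolene mice. The log2 fold was 2.71 ± 0.58 over both arms (adjusted p = 0.52 by edgeR, 3.6e-04 by DESeq2). It was positive in each arm, at 4.14 ± 0.56 and 1.28 ± 0.51, and the difference had an unadjusted p of 0.00183 and an adjusted p of 1.

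The matrix protein gene Cilp stood at 69.3 CPM in mice 2 and 3 of the TAC control group and at 9.50 CPM in mouse 1. Sham hearts had 4.17 to 7.93 CPM of it, and TAC dantrolene hearts 4.13 to 14.3 CPM. Its folds were 3.14 and 0.64. Collagen XII (Col12a1) had 2.96 and 0.60, lysyl oxidase (Lox), which crosslinks collagen, 2.49 and 0.28, and Comp, cartilage oligomeric matrix protein, 3.05 and 0.06 in control and dantrolene mice. The unadjusted p of the difference ran from 0.00746 for Comp to 0.0278 for Lox, and the adjusted p was 1 by edgeR for each. The TAC control 1 library, set apart on the first principal component, stood below its 2 group mates for each of these genes. Within the 4 libraries set apart alone, the folds over both arms were 0.29 for Cilp, 0.50 for Col12a1, 0.05 for Lox and 0.27 for Comp, and the list medians were -0.40 for collagens and -0.10 for activated fibroblast genes. Col1a1, the main fibrillar collagen chain, had 0.30 ± 0.31 over both arms (95% interval -0.37 to 0.98).

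Markers of valve, tendon and cartilage, tissues that share these matrix genes, had a median of 1.11, with 1.63 in control and 0.06 in dantrolene mice, and 5 of 9 were higher (55.6% against 5.03% of all genes). Of the 5, Fmod, Comp and Thbs4 also stand in matrix lists. Prg4, lubricin, had 2.46, 3.58 and 4.49 CPM in the lowest, median and highest sham heart and 4.74, 6.05 and 14.9 CPM in TAC hearts, with no overlap (log2 fold 1.11 ± 0.31). Whether valve or tendon tissue was part of any sample was not tested.

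Genes of calcium handling, the target system of dantrolene, showed few differences. Of 33 tested, 2 were higher, Trdn among them, and 2 lower (Cacng6 and Camk2a), 6.06% each way against 5.03% and 1.75% of all genes. The list's median was -0.13 in control mice (14 positive and 19 negative folds) and 0.20 in dantrolene mice (27 and 6). Ryr2, the ryanodine receptor of the heart, had 115, 196 and 310 CPM in the lowest, median and highest sham heart and 154, 219 and 367 CPM in TAC hearts, with a log2 fold of 0.24 ± 0.26 (95% interval -0.32 to 0.81). Atp2a2, the calcium pump SERCA2, had -0.13 ± 0.36 (-0.90 to 0.64), Pln, its inhibitor phospholamban, 0.20 ± 0.28, and Casq2, calsequestrin, -0.06 ± 0.25. Cacng6, a calcium channel subunit, was lower in TAC control mice (0.444 to 0.852 CPM) than in any sham heart (2.83 to 3.58 CPM) but stood at 1.78 to 3.6 CPM in TAC dantrolene mice. Cacna1s, the L-type channel of skeletal muscle, had 12.8 to 17.9 CPM in sham and 6.71 to 12.7 CPM in TAC hearts without overlap (log2 fold -0.71 ± 0.18, DESeq2 adjusted p = 0.0308), and was singled out after its values were seen.

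Among 28 potassium, sodium and pacemaker channels and connexins 22 had negative folds. At the unadjusted threshold 1, Kcnj11, was lower (3.57% against 1.75% of all genes) and 0 were higher. The median was -0.37 in control and 0.06 in dantrolene mice. Kcnq1, a repolarising potassium channel, had -1.04 ± 0.24 in control and 0.15 ± 0.24 in dantrolene mice (unadjusted p of the difference 0.00414, adjusted p = 1 by edgeR). Of 35 genes of fatty acid oxidation 1 was higher (2.86% against 5.03% of all genes) and 0 lower. Of 49 nuclear genes of oxidative phosphorylation 0 were higher and 0 lower. Mitochondrially encoded transcripts all had positive folds (15 of 15), with medians of 1.39 in control and -0.01 in dantrolene mice. Of them 2 passed the unadjusted threshold (13.3% against 5.03% of all genes). Their summed share spanned the 12 libraries so widely that TAC dantrolene 2 lay far below all sham hearts, at 13614 CPM against 69526 to 124950 CPM.

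**Figure D3:**
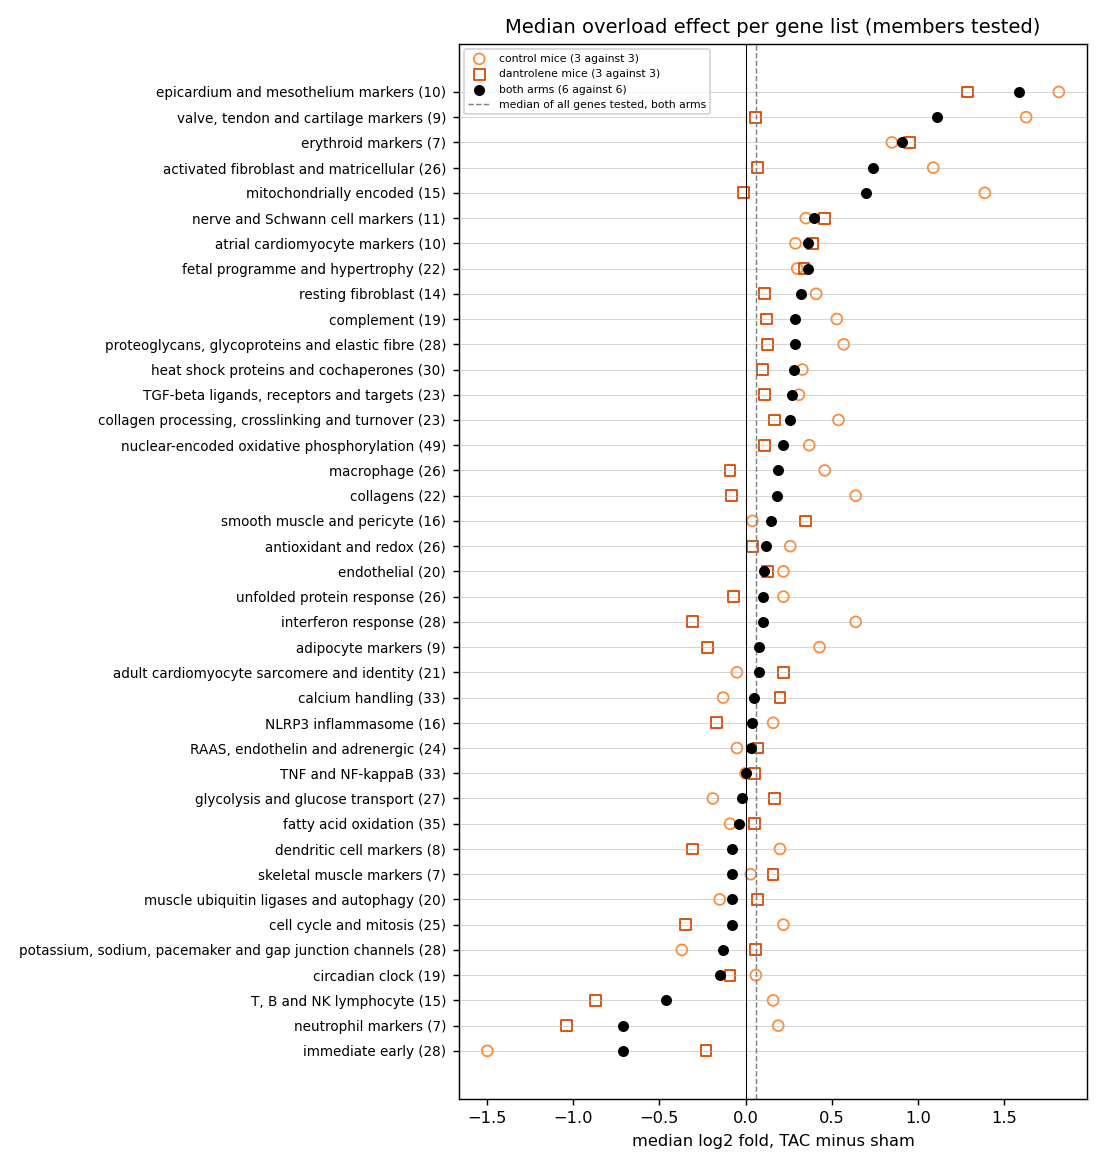
Median log2 fold of TAC over sham for each of 39 gene lists, with the number of members tested in brackets, over both arms (black) and within control (circles) and dantrolene mice (squares). The dashed line is the median of all genes at 0.06. Epicardial markers lie at 1.29 or above in both arms and valve, fibroblast and collagen lists near 0 in dantrolene mice, and immediate early genes lie at -1.50 in control and -0.23 in dantrolene mice.

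Control and dantrolene arms share no mice, but they are not independent measurements, since same-numbered mice of a surgery arm deviated together and mouse 3 of sham and mouse 1 of TAC stood apart in both. Likeness between the arms includes that shared deviation, and its size without a TAC effect was not tested. An unadjusted p under 0.05 was reached by 1186 genes in control (7.93%) and 256 in dantrolene mice (1.71%), and 0 passed in either arm at an adjusted p of 0.05 by edgeR. The 2 lists had 58 genes in common. Of the 58, 55 had the same sign, and these 55 were 4.64% of the control and 21.5% of the dantrolene list. They included Zfp36, Ier2, Usp18, Dusp1, Junb, Klf2, Il1b, Osm, Cxcl2, Ccl3 and Ccr7 on the lower side and Ptgds, Mmp3, Krt19, Upk1b, Hspa1a, Nmrk2, Fmod and Gabra3 on the higher. Of the genes under the threshold in dantrolene mice 75.4% had the same sign in control mice, and of those under the threshold in control mice 65.8% had the same sign in dantrolene mice, against 56.4% of all genes. Over all genes the folds of the 2 arms correlated with a Pearson r of 0.204 and a Spearman rho of 0.209, given as a description across 14965 genes, which are not independent. The median size of a fold was 0.37 in control and 0.25 in dantrolene mice. The difference of the arms had an unadjusted p under 0.05 for 422 of 14965 genes and an adjusted p under 0.05 for 0 by edgeR.

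**Figure D4:**
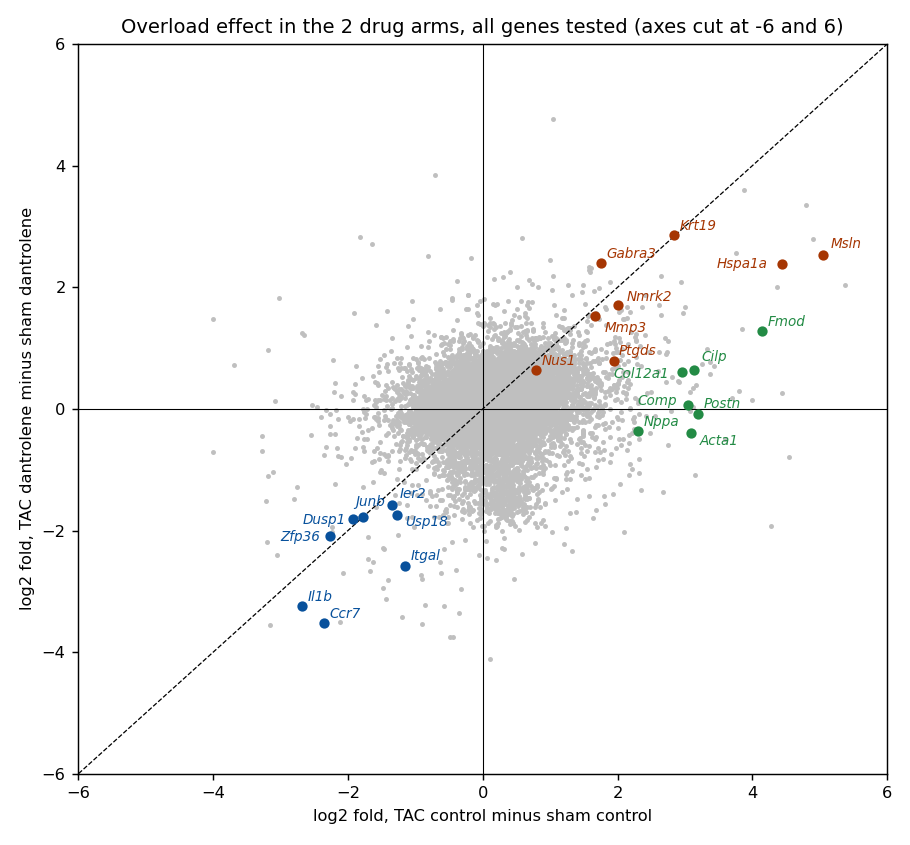
Log2 fold of TAC over sham in dantrolene mice (vertical) against control mice (horizontal) for the genes tested, with the line of equal folds dashed. Immediate early and cytokine genes (blue, such as Zfp36 at -2.26 and -2.09) and Krt19, Mmp3 and Nmrk2 (orange) lie near the dashed line. They were picked for a small p over both arms, which favours like folds. Acta1, Nppa, Postn and Comp (green) lie near 0 in dantrolene mice.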

How the data were processed

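Per the labels' protocols, poly(A) RNA from 12 left ventricles went into directional libraries that were read in pairs of 150 nucleotides. TopHat2, bcl2fastq, edgeR and the build GRCm38 are listed in the submitters' processing notes. Versions, the annotation and the strand setting of the counting were not stated in the labels used here. Raw counts per gene, as the authors deposited them, were used without rounding or rescaling, and a table of FPKM was not used. Without the strand setting, overlapping and antisense genes cannot be told apart. Rows without a gene numbered 0, and so did value columns without a sample.

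The edgeR function filterByExpr (minimum count 10, minimum total 15, by group) left 14965 genes and removed 0.0418% of reads. Counts were fitted with edgeR 4.0.16 in R 4.3.3 (TMM, robust quasi-likelihood, terms for drug and surgery, 9 residual degrees of freedom, two-sided tests, Benjamini-Hochberg adjustment over 14965 genes, threshold 0.05). A fit of 4 group means gave the arms and their difference. The spread between mice was a biological coefficient of variation of 0.438, and each library came from a separate mouse. DESeq2 1.42.0, limma 3.58.1, other scalings and filters, replicate blocks and libraries left out in turn were alternatives. On simulated counts for this comparison (14965 genes, spread as estimated) the test recovered 20.9% of 2-fold, 85.1% of 4-fold and 95.5% of 8-fold changes. It also called 11 unchanged genes. The simulated mice were independent, unlike same-numbered mice of a surgery arm here, and genes of the lowest counts were not changed. These shares may therefore overstate recovery in the data. CPM are counts scaled by the TMM-adjusted total, and folds are log2 with standard errors. Coordinates come from GENCODE vM21 on GRCm38 (14911 of the tested genes matched) and promoters from RefSeq on GRCm38.p6 (27 of 37 named genes).

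The comparison, the 39 lists (881 entries, 815 tested, 11 not found in the table) and the rule for named genes were chosen with earlier results of these data known. The rule names the 12 genes of smallest p in each direction (passing over Gm and Rik names), a set of index genes, and the members of a list with the smallest p (at most 4). Lists of neutrophil and dendritic cell markers, the CRE motif and a few genes (among them Fos, Klf2, Hsph1, Hsp90aa1, Dnaja1, Osm, Cxcl2, Cacna1s, Nfkb1, Rela, Pln, Casq2, S100a8 and S100a9) were added after values had been seen. Lists are described by counts and medians, with no set test. Single results of a few list members are not reported here.

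Replicate numbers did not pair mice across surgery: same-numbered sham and TAC mice correlated with -0.294, 0.283 and -0.304 in control and -0.377, 0.27 and -0.313 in dantrolene mice. Across drug, within sham (0.465, 0.366, 0.672) and within TAC (0.556, 0.3, 0.613), every pair exceeded 0.1, and the labels do not say what a number marks.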

Additional observations from a re-analysis of the deposited data

Results flagged for a closer look

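Within the 6 sham or 6 TAC mice of a gene, the log2 CPM of the most distant mouse was set against the nearest of the others by Dixon's criterion. Of 74 groups tested 11 stood out (14.9%), where chance gives about 1 in 20. The value after each is the gap as a share of the group's range. Among sham mice, the gap was 0.859 for Fam65c in control mouse 2 (0.318 CPM), 0.722 for Casp1 in control mouse 2 (0.414 CPM), 0.657 for Tnf in control mouse 3 (0.189 CPM), and, in dantrolene mouse 3, 0.637 for Fmod (1.94 CPM), 0.659 for Itgal (4.92 CPM) and 0.697 for Myh6 (4192 CPM). Among TAC mice, it was 0.875 for Tnf in dantrolene mouse 3 (0.313 CPM), 0.738 for Sbk2 in control mouse 3 (1.88 CPM), 0.706 for Fam107a in control mouse 1 (4.09 CPM), 0.676 for Usp18 in dantrolene mouse 3 (2.79 CPM) and 0.643 for Chaf1b in dantrolene mouse 1 (0.648 CPM). Sham dantrolene 3 accounts for 3 of the 11. None of the 80 genes examined had every TAC mouse above every sham mouse in a drug arm and every TAC mouse below every sham mouse in the other.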

How the results depend on the processing

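The 4-library split, its term and the Arntl and Dbp term were chosen after seeing the data, and the cause of each shift below was not tested unless stated. Against 0 genes called by edgeR, 3 were called without a filter, 33 by DESeq2, 840 by limma voom with quality weights, 1 without the 4 libraries set apart and 1 with that split as a term, Zfp36 in both. Leaving out each library in turn gave 0 to 1, with 1 without sham control 3. The 1014 genes at an unadjusted p under 0.05 became 3750 with voom and quality weights, 2958 without the 4 libraries, 1697 with the split as a term and 1888 with the Arntl and Dbp term, and 584 (without TAC control 3) to 1710 (without TAC control 1) when a library was left out. It also moved by over 1.5 times without sham control 1 (635), sham control 3 (668) and TAC dantrolene 2 (1574). The 83 genes without overlap became 89 to 199 with 1 library fewer to clear: 199 without TAC dantrolene 2, 191 without TAC control 1, 149 without TAC dantrolene 1, 145 without sham dantrolene 2, 139 without sham dantrolene 3 and 129 without TAC dantrolene 3.

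Within control mice DESeq2 called 77, the fit without the 4 libraries 484 and the split term 21, against 0, and leaving out a library gave 0 to 15, with 15 without TAC control 1 and 1 each without sham dantrolene 3 and TAC dantrolene 3. Within dantrolene mice DESeq2 called 4, and leaving out a library gave 0 to 0. For the difference of the arms DESeq2 called 1 and the fit without the 4 libraries 7, and leaving out a library gave 0 to 0. The share of higher genes at an unadjusted p under 0.05, 74.2%, was 37.6% with library totals, 60.4% without mitochondrially encoded genes (611 and 400) and 54.3% with voom (2035 and 1715).

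The replicate number as a block over all groups gave 0 calls and 835 genes at an unadjusted p under 0.05. Same-numbered mice of a surgery arm as a random block (consensus correlation 0.513) gave 0 calls and 217 such genes, and their summed counts, 3 against 3, gave 0 and 398, with a smallest adjusted p of 1 in both, where fewer units are compared by construction.

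Of 80 genes, 69 kept their sign in every setting, and 2221 pairs of gene and setting held 15 reversals. Within the 4 libraries alone the log2 fold was -0.49 for Postn, -0.67 for Ankrd1, -0.18 for Nppa, -0.72 for Col1a1, -0.28 for Myh7, -0.75 for Casp1, -0.17 for Trdn, -0.29 for Chuk, -0.22 for Nek7 and -0.06 for Xirp2. Myh7 was -0.10 with voom. Over libraries left out in turn, Myh7 ran from -0.16 (without TAC dantrolene 2) to 0.77, Casp1 from -0.21 (without TAC control 3; -0.03 without sham control 2) to 0.57, and Atp2a2 from -0.33 to 0.04 (without TAC control 1). Counts of a few CPM, as for Il1b, Ccr7 and Upk1b, limit the precision of their folds.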
